A study of Mus musculus with 12 samples.

Results

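Histone genes were followed in germ cells of female mouse embryos whose mothers either received vitamin C or had it withdrawn. The members are the listed genes whose symbol starts with Hist1, Hist2, Hist3 or Hist4, here called replication-dependent, and those whose symbol starts with H2af, H3f3 or H1f, here called variant. By that rule 72 of the 12516 listed genes are histone genes, 62 replication-dependent and 10 variant. The rule used symbols only and no measured value. The symbol Hist1h4m and other copies that are not listed were not analysed here.

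RNA was sequenced from Oct4-positive germ cells sorted from single embryos at embryonic day 13.5, 6 embryos in the supplied group and 6 in the withdrawn group. Every embryo of both groups was Gulo-/-, of C57BL/6 background. Gulo-/- mice lack the enzyme that completes vitamin C synthesis and depend on the diet for the vitamin. Supplied mothers received a physiological level, and withdrawal covered the first 2 weeks of gestation, so that the diet acted on mother and embryo together. Titles number the embryos 1 to 4 within each diet, with 2 embryos a diet under numbers 1 and 4 and 1 under numbers 2 and 3. The labels do not tell whether a shared number means siblings.

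Replication-dependent histone genes supply the H1, H2A, H2B, H3 and H4 proteins that package newly copied DNA in S phase. They lie in clusters of near-identical copies, have no introns, and their mRNAs end in a conserved stem-loop in place of a poly(A) tail. The stem-loop is bound by the protein Slbp and the mRNA is cut just behind it with the help of the U7 small nuclear RNA. Variant histones replace the canonical proteins outside S phase, and most are made from spliced, polyadenylated mRNAs. In the germ line both kinds are exchanged as cells leave mitosis, enter meiosis and, in males, build sperm chromatin.

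The stem-loops are shown because they are the feature that sets the replication-dependent mRNAs apart from most others in the cell. The motif searched was GG, any 2 bases, CTT, any base, T, any base, AG, any 2 bases and CC, on the sense strand of the annotated transcripts (GENCODE M21, GRCm38). It was found in 42 of the 62 replication-dependent genes and in 1 of the 10 variant genes, against 136 of 21901 protein-coding genes (0.621%). Histone genes were not taken out of that last count. Of the 20 replication-dependent genes without a match, 13 have a transcript annotated at 420 bases or fewer and 7 a longer one, and no match says only that these letters are not in the annotated transcript. The form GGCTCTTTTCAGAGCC was carried by 23 members, and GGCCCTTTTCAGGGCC and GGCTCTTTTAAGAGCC by 6 each. Capitals mark the stem-loop in 6 members described below, with 5 bases on either side.

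Hist1h1e: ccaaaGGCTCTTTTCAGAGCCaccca
Hist1h4n: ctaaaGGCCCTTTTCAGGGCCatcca
Hist1h3g: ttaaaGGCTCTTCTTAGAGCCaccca
Hist1h1t: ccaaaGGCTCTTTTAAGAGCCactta
Hist2h2ac: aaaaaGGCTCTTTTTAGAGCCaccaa
H2afx: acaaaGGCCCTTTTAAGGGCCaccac

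H2afx is the variant with the motif. It encodes the H2A form that is phosphorylated around DNA breaks, and its gene is known to give both a stem-loop mRNA and a polyadenylated one.

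The deposited values are normalized log2 expression values, here called log2 values, and log2 fold changes subtract the supplied from the withdrawn mean. Read depth could not be obtained from them and is unknown. The libraries correlated with each other at 0.986 to 0.999 across genes. Of the 8 germ cell markers checked, all were listed and 7 had a mean above that of the median gene. Markers of gonadal supporting cells lay low, with 0 of 10 above the median gene and Foxl2, which defines granulosa cells, lowest at 3.74 ± 0.04 (SD, n = 6) in supplied embryos. Their summed level ran from 8.99 to 9.28 in supplied and from 8.90 to 9.11 in withdrawn embryos, and that of 6 mesenchymal markers from 9.90 to 10.29 and from 9.56 to 9.86. Summed levels of 5 endothelial markers ran from 10.90 to 11.40 and from 11.29 to 11.51, and those of 2 macrophage markers from 6.09 to 6.49 and from 5.97 to 6.13. The endothelial sum was mostly Pecam1 (means 11.18 supplied and 11.38 withdrawn), while the median of that list was 5.24 and 5.22. Likewise the mesenchymal sum was mostly Fbln1 (9.63 and 9.33), while the median of that list was 5.53 and 5.39. No erythroid marker of the list, and no Gulo, is among the listed symbols. In such bulk samples fewer cells of a type and less RNA per cell cannot be told apart.

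Replication-dependent histone mRNAs were lower in the withdrawn embryos, and the shift was shared by nearly the whole Hist1 cluster. At an adjusted p below 0.05 in limma, 38 of the 62 genes fell and 0 rose, all 38 of them in Hist1. Over all 12432 genes that passed the filter on low values, 14.0% were called, 7.75% as lower and 6.22% as higher. All 72 histone genes passed that filter. A negative fold change was found in 60 of the 62 genes, against 53.4% of all genes. The median log2 fold change was -0.28, a 1.22-fold lower level, with a range from -0.54 to 0.0085, while the median of all genes was -0.0093. Variant histone genes did not share that direction, with 2 of 10 higher (H3f3a and H2afv), 0 lower and a median of 0.13.

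At an unadjusted p below 0.05 the replication-dependent counts were 49 lower and 0 higher, against 16.7% lower and 13.5% higher of all genes. An exact permutation test per gene, adjusted over all genes, called 3 lower and 0 higher, against 291 lower and 267 higher of all 12432 genes. Those 3 are the genes, named below, whose groups do not overlap. Among the 2756 genes whose mean level lay between 9.47 and 11.30, between the lower and upper quartile of the replication-dependent genes, 6.64% were lower and 12.2% higher, with a median of 0.029. The count of 38 depended on particular embryos and numbers. It was 18 without supplied replicate 5, 18 without supplied replicate 6, 23 without withdrawn replicate 6, and 14 without the embryos of title number 2. It was 0 without those of title number 4, where the median was -0.20 and the whole table gave 40 lower and 9 higher.

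**Figure D1:**
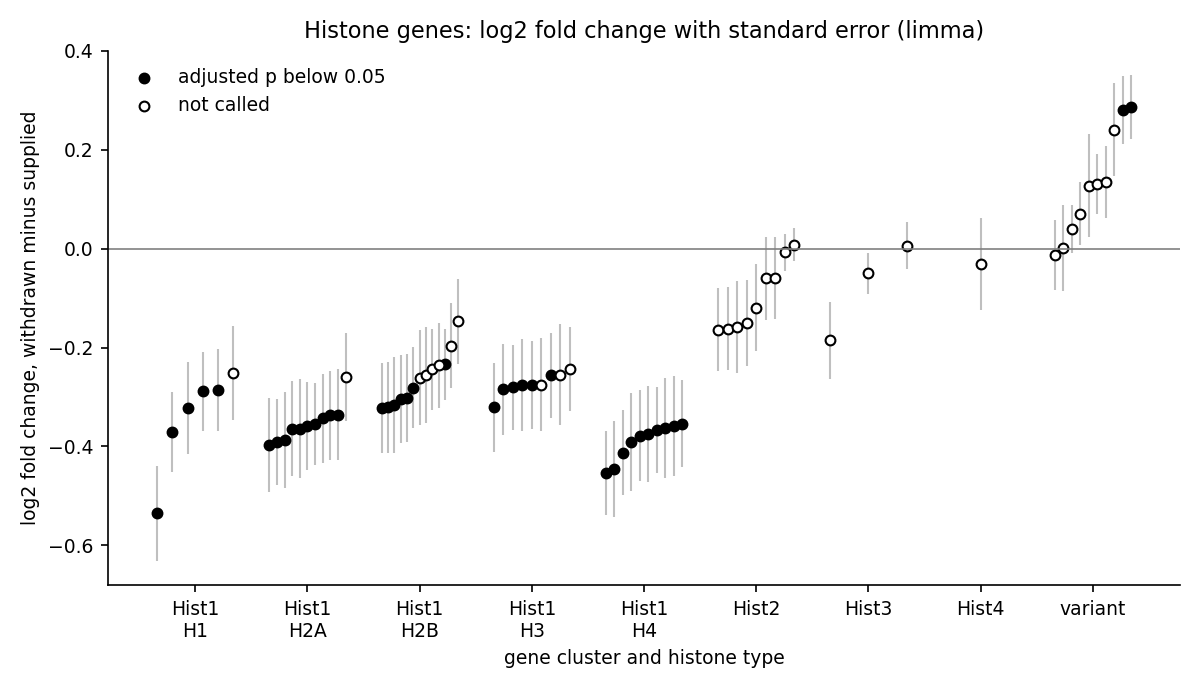
Log2 fold change (withdrawn minus supplied, y axis) of each of the 72 histone genes, grouped by cluster and histone type (x axis), with bars of 1 standard error. Filled points passed the adjusted p threshold. All 49 Hist1 points lie below 0, and the 2 filled variant points lie above it. The Hist2, Hist3 and Hist4 points mostly lie nearer to 0, with none filled.

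The 49 genes of the Hist1 cluster had a median log2 fold change of -0.32, and all 49 values were negative. By type, 5 of 6 H1 genes fell (median -0.31), 10 of 11 H2A genes (median -0.36), 7 of 13 H2B genes (median -0.26), 6 of 9 H3 genes (median -0.28) and 10 of 10 H4 genes (median -0.38). Whether the types differ from each other was not tested. In 47 of the 62 replication-dependent genes all 6 withdrawn embryos lay below the supplied mean. That count was not made over all genes, so how unusual it is cannot be told. Groups with no overlap were rare, with 3 genes, Hist1h1a, Hist1h4n and Hist1h4f, against 2.34% of all genes in that direction and 4.49% in either.

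The copies cannot all be told apart by sequence. Over windows of 50 bases, the median replication-dependent transcript shared 45.5% of its windows with another annotated gene, and 26 of the 62 shared most of theirs. By type the median share was 1.12% for H1, 34.2% for H4, 43.8% for H2B, 58% for H2A and 62% for H3. How reads that match several copies were counted is not given in the sources used here, so values of single H2A, H2B, H3 and H4 copies are uncertain and the copies are not independent measurements. Hist1h1a, Hist1h1b and Hist1h1t shared no window with any gene.

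**Figure D2:**
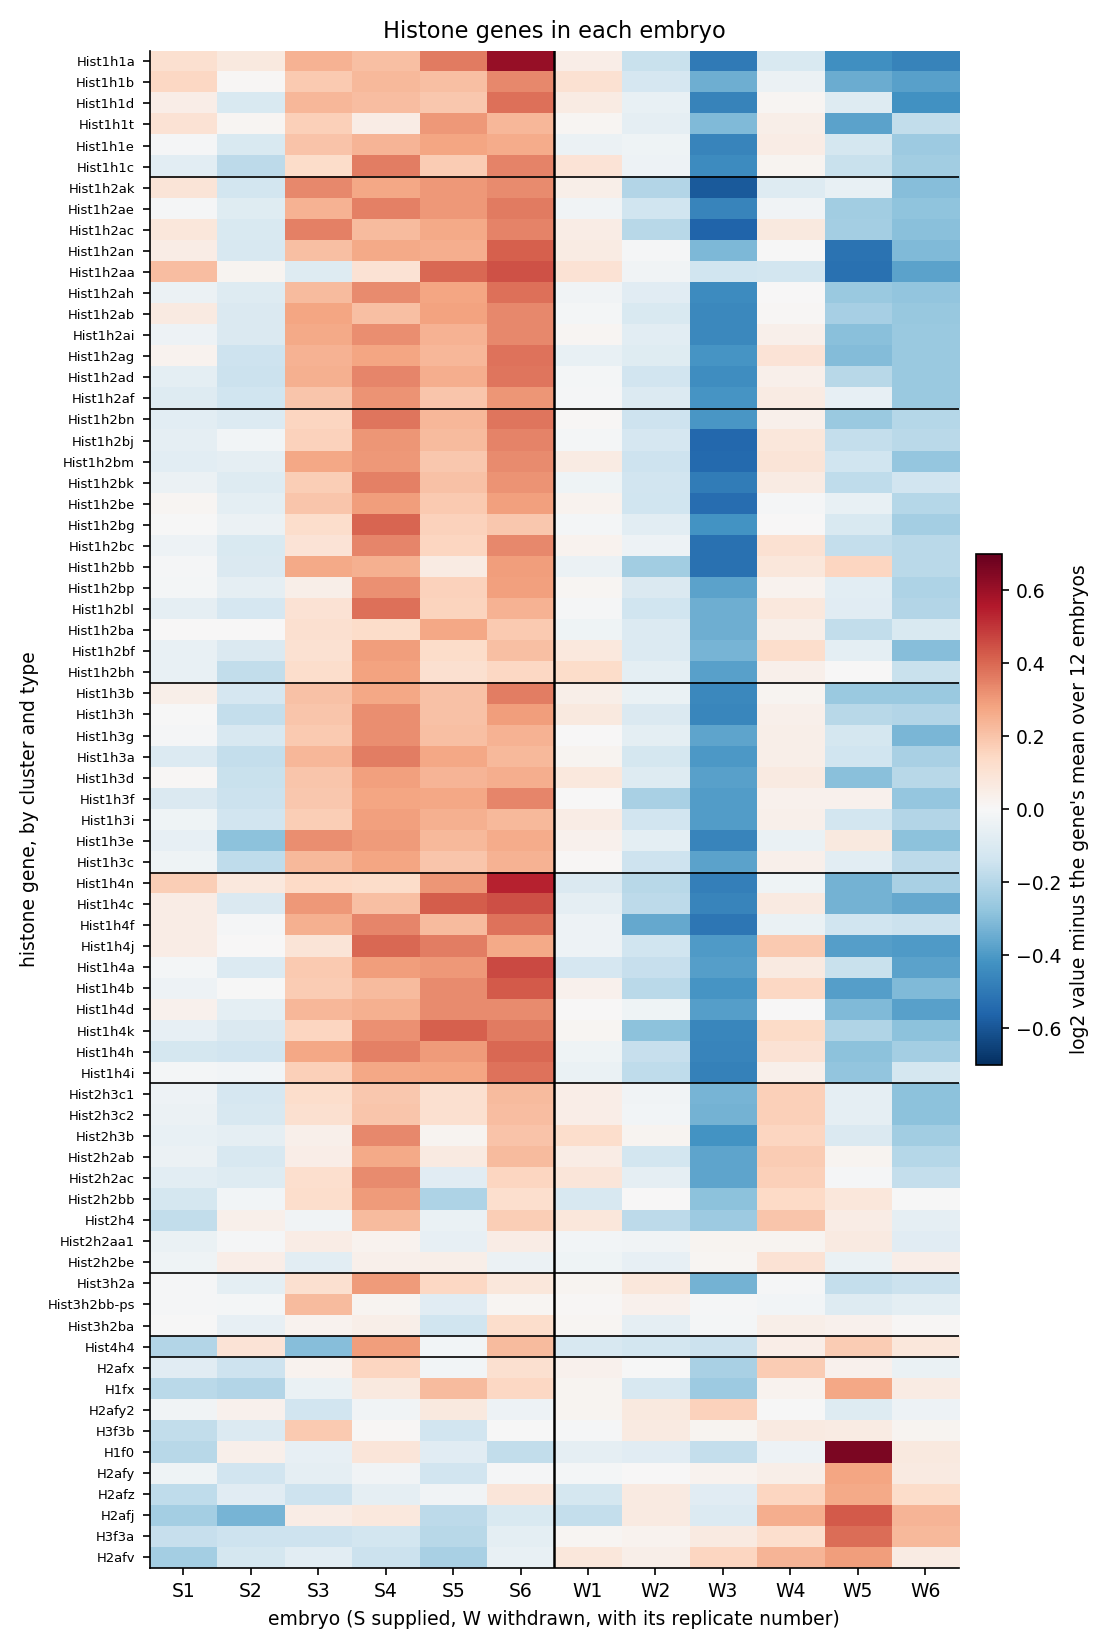
Log2 value of each histone gene (rows) in each embryo (columns, S1 to S6 supplied, W1 to W6 withdrawn) minus the gene's mean over the 12 embryos. The Hist1 rows change together from embryo to embryo: supplied replicates 1 and 2 sit lower than the other supplied embryos, and withdrawn replicate 3 is the lowest column.

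Linker histones of the H1 type bind DNA where it enters and leaves the nucleosome. Hist1h1a had log2 values of 12.40, 12.36, 12.54, 12.50, 12.65 and 12.90 in supplied embryos 1 to 6. In withdrawn embryos 1 to 6 its values were 12.34, 12.14, 11.80, 12.18, 11.86 and 11.82. All 6 withdrawn embryos lay below all 6 supplied ones, although the highest of them came close to the lowest supplied embryo. The mean went from 12.56 ± 0.20 to 12.02 ± 0.22 (SD, n = 6 each). Its log2 fold change was -0.54 (SE 0.10, adjusted p = 0.00248), the largest fall of any histone gene.

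Hist1h1b ran from 11.71 to 12.04 in supplied embryos (median 11.90) and from 11.32 to 11.81 in withdrawn ones (median 11.47). Its groups overlapped in the range between 11.71 and 11.81, and its log2 fold change was -0.37 (SE 0.08, adjusted p = 0.00640). Hist1h1d and Hist1h1e, widely expressed subtypes, fell by 0.32 (adjusted p = 0.0242) and 0.29 (adjusted p = 0.0268) on the log2 scale. Hist1h1e had the highest values of all histone genes in this table, 13.19 ± 0.16 supplied and 12.90 ± 0.19 withdrawn (SD, n = 6 each). Hist1h1t, the linker histone best known from spermatocytes, was also measured in these female cells, at 8.41 ± 0.11 and 8.12 ± 0.17 (SD, n = 6 each). It fell by 0.29 on the log2 scale (adjusted p = 0.0207), but missed the threshold without supplied replicate 5 (0.0608) or 6 (0.0501). Hist1h1c was the H1 gene that missed the threshold, with a log2 fold change of -0.25 (adjusted p = 0.0789).

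Promoters of the 5 H1 genes that fell are shown for what they share and where they differ. Each is the 120 bases before the annotated start (RefSeq, GRCm38.p6). Capitals mark the CCAAT box, the TATA box in the form TATAAA and the H1 box AAACACA, searched on both strands. The octamer ATTTGCAT was also searched and is not in these windows.

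Hist1h1a, chr13:23763548-23763667, plus strand: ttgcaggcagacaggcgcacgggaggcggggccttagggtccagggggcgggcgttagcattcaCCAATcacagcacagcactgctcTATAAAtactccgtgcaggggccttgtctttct
Hist1h1b, chr13:21780626-21780745, minus strand: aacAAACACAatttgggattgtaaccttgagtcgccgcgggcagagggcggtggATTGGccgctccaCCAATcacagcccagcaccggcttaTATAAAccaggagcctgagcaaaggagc
Hist1h1d, chr13:23554912-23555031, plus strand: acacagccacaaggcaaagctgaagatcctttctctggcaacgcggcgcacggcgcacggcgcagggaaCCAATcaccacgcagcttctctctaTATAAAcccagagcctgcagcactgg
Hist1h1e, chr13:23622559-23622678, minus strand: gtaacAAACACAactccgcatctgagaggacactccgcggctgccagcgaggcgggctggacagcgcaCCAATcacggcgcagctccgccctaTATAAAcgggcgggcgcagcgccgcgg
Hist1h1t, chr13:23695691-23695810, plus strand: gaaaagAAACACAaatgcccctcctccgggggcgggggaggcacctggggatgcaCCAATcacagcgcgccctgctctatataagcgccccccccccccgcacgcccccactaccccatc

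In these 5 promoters the CCAAT box nearest the start began 51 to 65 bases before it. TATAAA began 26 to 33 bases before the start in 4 of them and is not in that of Hist1h1t. Over the 250 bases before the start, CCAAT was found in 6 of 6 H1, 15 of 15 H2A, 14 of 14 H2B, 8 of 10 H3 and 3 of 11 H4 promoters, and in 37.5% of the 27025 genes with a promoter in the table. The H1 box was found in 5 of 6 H1 promoters and in 7.2% of all genes. The octamer was found in 7 of 15 H2A and 7 of 14 H2B promoters, in 0 of the H1, H3 and H4 promoters and in 1.81% of all genes. TATAAA was found in 4 of 6 H1, 7 of 15 H2A, 8 of 14 H2B, 4 of 10 H3 and 5 of 11 H4 promoters and in 14.3% of all genes.

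H4 histones form the core tetramer of the nucleosome with H3. All 10 Hist1 H4 genes fell, with adjusted p values from 0.00304 to 0.0231. Hist1h4n had log2 values of 9.65, 9.56, 9.62, 9.61, 9.79 and 10.02 in supplied embryos and 9.38, 9.29, 9.0, 9.45, 9.15 and 9.25 in withdrawn ones. The groups did not overlap, and its log2 fold change was -0.45 (SE 0.09, adjusted p = 0.00304). Hist1h4f had 9.46, 9.40, 9.66, 9.75, 9.63 and 9.79 in supplied embryos and 9.37, 9.05, 8.90, 9.36, 9.27 and 9.26 in withdrawn ones. Its groups were separated only narrowly, by supplied replicate 2 and withdrawn replicate 1, and its log2 fold change was -0.41 (SE 0.09, adjusted p = 0.00541). The Hist1h4n transcript shares 85.6% of its windows with another gene and that of Hist1h4f 39.5%. The other H4 log2 fold changes were -0.45 for Hist1h4c, -0.39 for Hist1h4j, -0.38 for Hist1h4a, -0.37 for Hist1h4b and Hist1h4d, -0.36 for Hist1h4k and Hist1h4h and -0.35 for Hist1h4i.

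H2A and H2B pair into the dimers that flank the tetramer. Hist1h2ak ran from 11.73 to 12.20 in supplied embryos (median 12.15) and from 11.27 to 11.90 in withdrawn ones (median 11.71), which gave a log2 fold change of -0.40 (adjusted p = 0.0102). Hist1h2ae had the smallest adjusted p of the H2A genes, 0.00748, with a log2 fold change of -0.39. Hist1h2ac, Hist1h2an, Hist1h2ah, Hist1h2ab, Hist1h2ai, Hist1h2ag and Hist1h2ad also fell, from Hist1h2ac, which fell by 0.39, to Hist1h2ad, which fell by 0.34 on the log2 scale (adjusted p = 0.0204). Hist1h2ab was the replication-dependent core histone gene with the highest values, 12.49 ± 0.17 supplied and 12.14 ± 0.17 withdrawn (SD, n = 6 each). Hist1h2af missed the threshold at -0.26 (adjusted p = 0.0539).

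Of the H2B genes, Hist1h2bn, Hist1h2bj and Hist1h2bm each fell by 0.32, Hist1h2bk and Hist1h2be by 0.30 and Hist1h2bg by 0.28 on the log2 scale. Adjusted p values of these 6 ran from 0.0233 for Hist1h2bn to 0.0342 for Hist1h2bm. Values that missed the threshold were -0.26 for Hist1h2bc, -0.25 for Hist1h2bb, -0.24 for Hist1h2bp (adjusted p = 0.0501) and Hist1h2bl, -0.20 for Hist1h2bf and -0.15 for Hist1h2bh. Hist1h2aa and Hist1h2ba encode the testis-type H2A and H2B that pair with each other in male germ cells. Both fell in these female germ cells, Hist1h2aa by 0.36 (adjusted p = 0.0198) and Hist1h2ba by 0.23 (adjusted p = 0.0338) on the log2 scale.

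H3 carries many of the modified lysines of the nucleosome. Hist1h3b ran from 10.12 to 10.59 in supplied and from 9.78 to 10.27 in withdrawn embryos, and its log2 fold change was -0.32 (adjusted p = 0.0211). Hist1h3h, Hist1h3g and Hist1h3a fell by 0.28, and Hist1h3i by 0.26 on the log2 scale. Hist1h3d also fell by 0.28 (adjusted p = 0.0410). The H3 genes had the highest share of common sequence, and several of their adjusted p values lay just under the threshold, as for Hist1h3a (0.0486) and Hist1h3i (0.0476). Values that missed it were -0.27 for Hist1h3f (adjusted p = 0.0534), -0.25 for Hist1h3e and -0.24 for Hist1h3c.

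Outside Hist1 no replication-dependent gene passed the test. In the Hist2 cluster 0 of 9 genes were called by limma, against 7.75% lower and 6.22% higher of all genes. With only 9 genes, that count does not set Hist2 apart from all genes. The exact permutation test also called 0. At an unadjusted p below 0.05 there were 0, against 16.7% lower and 13.5% higher of all genes. The median log2 fold change was -0.12, with 8 of 9 values negative and a smallest adjusted p of 0.193, for Hist2h3c1. Hist2h3c1, Hist2h3c2 and Hist2h3b, which encode H3, had -0.16, and Hist2h2ab and Hist2h2ac, which encode H2A, -0.15 and -0.12. Hist2h2bb and Hist2h4 both had -0.06. The difference between Hist1 and Hist2 was not tested.

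Hist2h2aa1 (-0.0068) and Hist2h2be (0.0085) had low log2 values, with supplied means of 4.94 and 4.14. Of the 3 Hist3 genes, Hist3h2a had -0.19 (adjusted p = 0.110), the pseudogene Hist3h2bb-ps -0.050 and Hist3h2ba 0.0063. The lone Hist4 gene, Hist4h4, had -0.030 (adjusted p = 0.861).

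Of the 10 variant histone genes 2 rose, H2afv and H3f3a, and the other 8 did not pass the test, against 6.22% of all genes called higher. The log2 fold change was positive in 9 of them. At an unadjusted p below 0.05, 4 were higher, against 13.5% of all genes. H2afv encodes a close relative of the H2A.Z protein, which marks promoters. Its log2 values were 10.41, 10.53, 10.58, 10.50, 10.42 and 10.60 in supplied embryos and 10.73, 10.69, 10.80, 10.89, 10.94 and 10.71 in withdrawn ones. All withdrawn embryos lay above all supplied ones, as they did in 2.15% of all genes, and the log2 fold change was 0.29 (SE 0.06, adjusted p = 0.00764).

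H3f3a encodes the replacement H3 that is laid down independently of DNA copying. It had 9.64, 9.66, 9.66, 9.67, 9.61 and 9.74 in supplied embryos and 9.82, 9.83, 9.87, 9.92, 10.20 and 10.03 in withdrawn ones. The supplied embryos were tightly grouped, the withdrawn ones were all higher, and those of title number 4 (replicates 5 and 6) were the highest. The log2 fold change was 0.28 (SE 0.07, adjusted p = 0.0120). Without title number 4 neither call held, at 0.27 for H2afv (adjusted p = 0.0860) and 0.20 for H3f3a (adjusted p = 0.171). H3f3a also missed the threshold when embryos of the same title number and diet were averaged (adjusted p = 0.0695). The share of common windows was 0% for H2afv and 14.9% for H3f3a.

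H3f3b encodes the same protein as H3f3a from another gene. It ran from 11.39 to 11.75 in supplied and from 11.56 to 11.63 in withdrawn embryos, with a log2 fold change of 0.071 (adjusted p = 0.481). H2afj, an H2A variant, had 0.24 (adjusted p = 0.0900). H2afz, which encodes H2A.Z, had 0.13 (adjusted p = 0.224). H2afy, a macroH2A gene with the highest values among the variants, had 0.13 (adjusted p = 0.151), and its relative H2afy2 0.039. H1f0, a linker histone of cells that have stopped dividing, had 0.13 (adjusted p = 0.438), and 0.0084 without withdrawn replicate 5, whose value of 8.61 stood above the rest. H1fx, another linker histone, had 0.0013. H2afx, the variant with a stem-loop, had -0.012 (adjusted p = 0.927), from 11.50 to 11.80 in supplied and from 11.42 to 11.83 in withdrawn embryos.

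**Figure D3:**
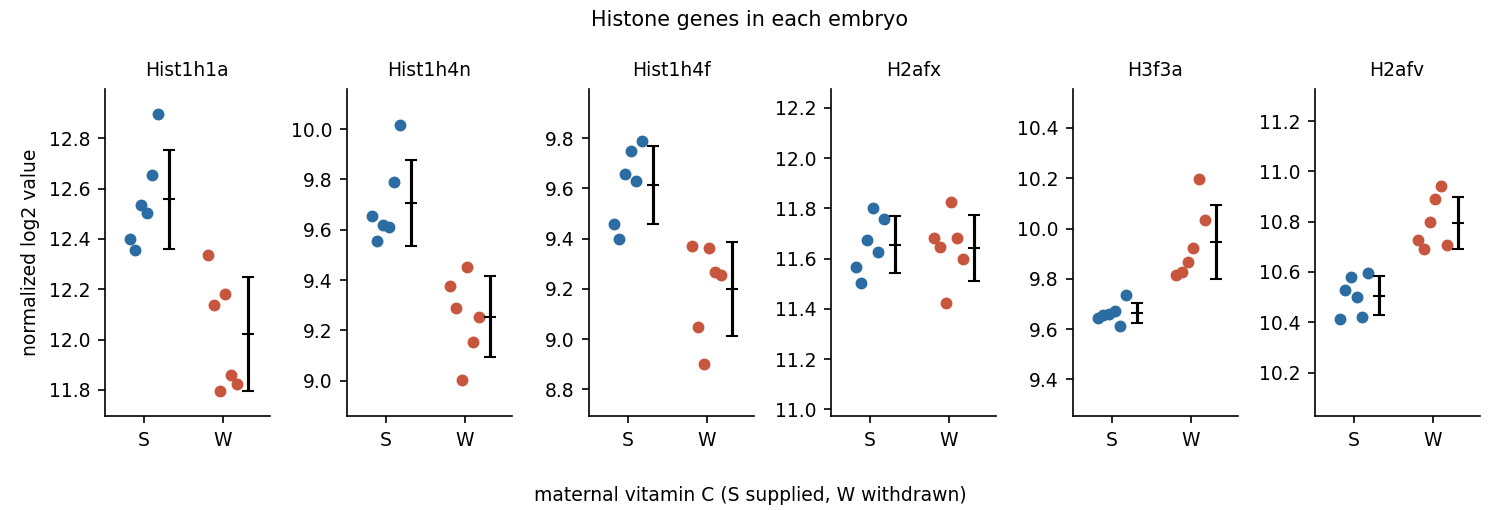
Log2 values (y axis) of 6 histone genes in each supplied and withdrawn embryo, with the mean and 1 SD of each group (n = 6). Hist1h1a, Hist1h4n and Hist1h4f are lower in all withdrawn embryos, H3f3a and H2afv are higher in all of them, and the 2 groups of H2afx overlap across their range.

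The mean log2 value over the 62 replication-dependent genes was taken for each embryo as a description. It was 9.85, 9.78, 10.02, 10.13, 10.05 and 10.15 in supplied embryos 1 to 6 and 9.87, 9.76, 9.48, 9.91, 9.70 and 9.63 in withdrawn embryos 1 to 6. The group means were 9.997 ± 0.15 and 9.73 ± 0.16 (SD, n = 6 each), and the groups overlapped. The 2 supplied embryos of title number 1 were as low as several withdrawn embryos, and the 2 withdrawn embryos of that number were level with them.

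Compared within a title number, the mean over the Hist1 genes differed between diets by -0.011 for number 1 (2 embryos a diet), -0.62 for number 2 (1 a diet), -0.25 for number 3 (1 a diet) and -0.52 for number 4 (2 a diet). Thus the difference was seen within numbers 2, 3 and 4 and was near 0 within number 1. The same differences for the 9 Hist2 genes were 0.047, -0.32, -0.068 and -0.14, and for the 10 variant genes 0.13, -0.00030, 0.10 and 0.21. No test was made within a single number. Without number 1 the replication-dependent median was -0.45.

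**Figure D4:**
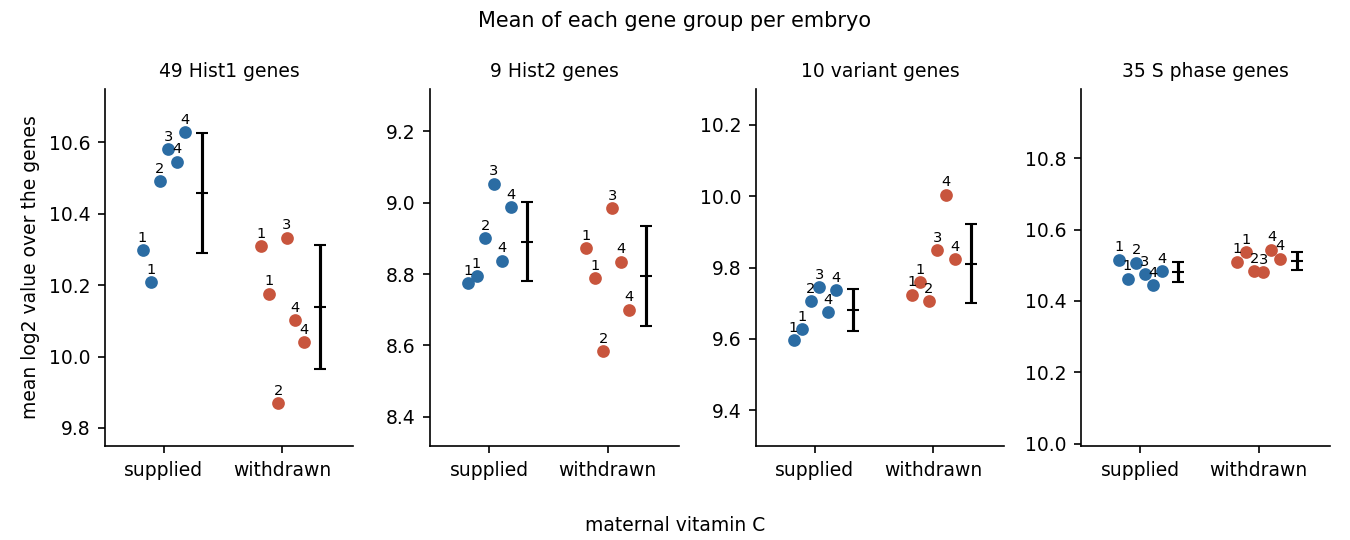
Mean log2 value per embryo (y axis) over 49 Hist1, 9 Hist2, 10 variant and 35 S phase genes, each point labelled with the title number and bars giving mean and SD (n = 6). The Hist1 points of title number 1 coincide between diets, those of numbers 2 and 4 are apart, and the S phase points span a narrow range in both groups.

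An RNA that is not a histone message, chosen after its values were seen, moved with the replication-dependent genes across embryos. How many other genes do so was not counted. Rn45s is the precursor of ribosomal RNA, which like these histone mRNAs carries no poly(A) tail. Its log2 value was 20.40, 20.39, 20.89, 20.83, 20.90 and 21.03 in supplied embryos and 20.72, 20.39, 19.86, 20.73, 20.31 and 19.81 in withdrawn ones. It fell by 0.44 on the log2 scale (SE 0.14, adjusted p = 0.0371). Its groups overlapped, and its unadjusted p in the exact permutation test was 0.0541. The embryos low in Rn45s were largely those low in histone mRNA, with supplied replicates 1 and 2 lowest among the supplied, and withdrawn replicates 3 and 6 lowest among the withdrawn. Within title numbers 1 to 4 Rn45s differed by 0.16, -1.02, -0.10 and -0.91, beside -0.011, -0.62, -0.25 and -0.52 for the Hist1 mean.

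Rmrp and Rpph1, the RNAs of the RNase MRP and RNase P enzymes and also without a poly(A) tail, had log2 fold changes of -0.34 (adjusted p = 0.197) and -0.26 (adjusted p = 0.230). Of 7 such RNAs, chosen after values had been seen, 7 were negative and 1, Rn45s, was called, with a median of -0.064. Of 62 small nucleolar and Cajal body RNAs, also chosen then, 53 were negative and 2 fell, with a median of -0.048. How the libraries were primed is not given in the sources used here.

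A fit with the Rn45s value as a covariate was added after the data had been seen. It called 0 of the 62 replication-dependent genes and 0 variant genes, with 9 replication-dependent genes at an unadjusted p below 0.05, and it called 10 genes lower and 4 higher in the whole table. The replication-dependent median became -0.084 with 50 of 62 values negative, and the Hist1 median -0.12 with 47 of 49 negative. All 9 Hist2 values were then positive, with a median of 0.039, while the variant median stayed at 0.13. Rn45s itself differed between the diets, so the part of each in this fit cannot be told apart. A covariate from 22 somatic marker genes, Pecam1 not among them, also left 0 histone genes called, and 1 gene called lower and 0 higher in the whole table. There the replication-dependent median was -0.34, with 61 of 62 values negative and 47 genes at an unadjusted p below 0.05. The median SE of these genes was 0.12, against 0.089 in the main fit. All 10 supporting and all 6 mesenchymal markers in this covariate had negative log2 fold changes in the main fit. The parts of the covariate and the diet therefore cannot be told apart here either.

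**Figure D5:**
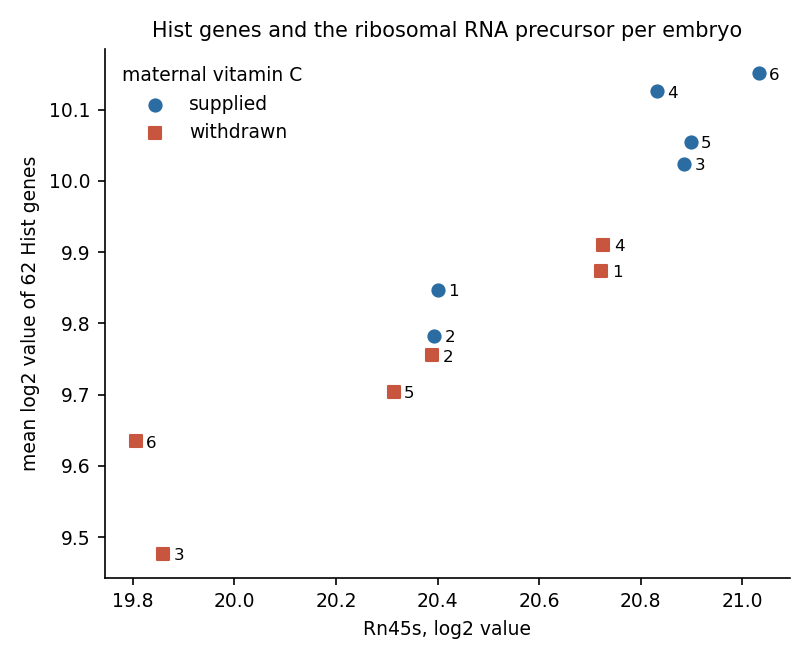
Log2 value of Rn45s (x axis) and mean log2 value over the 62 replication-dependent genes (y axis) in each embryo, labelled with its replicate number, by diet. Supplied replicates 3 to 6 lie at the upper right and withdrawn replicates 3, 5 and 6 at the lower left, with both embryos of title number 1 in each diet, and withdrawn replicate 4, between them.

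Genes that act on histone mRNAs were called about as often as all genes (14.0%). Of 24 for histone mRNA processing, 2 rose and 1 fell, with a median log2 fold change of 0.011. Slbp, which binds the stem-loops shown above, had log2 values of 11.40 ± 0.06 and 11.42 ± 0.08 (SD, n = 6 each), a log2 fold change of 0.013 (adjusted p = 0.907). Cstf2, a subunit of the cleavage stimulation factor, fell by 0.26 (adjusted p = 0.0141). Cpsf3, the endonuclease that cuts the mRNA behind the stem-loop, had 0.24 (adjusted p = 0.0159) and Ncbp1, of the nuclear cap-binding complex, 0.21 (adjusted p = 0.0370), both higher. Cdk9, the kinase of the elongation factor P-TEFb, had 0.24 (adjusted p = 0.0549).

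Among 14 genes for histone gene transcription 1 rose and 0 fell, against 6.22% and 7.75% of all genes, with a median of 0.034. The gene that rose was Nfya, a subunit of the factor that binds CCAAT boxes, with a log2 fold change of 0.27 (adjusted p = 0.0261). Its partner Nfyb had 0.18 (adjusted p = 0.121). Npat, the coactivator that gathers at histone gene clusters, had 0.13 (adjusted p = 0.251) and Casp8ap2, another protein of these nuclear bodies, -0.11 (adjusted p = 0.233).

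Of 38 histone chaperone and exchange genes 6 rose and 0 fell, a share of higher calls to be read against 6.22% of all genes, with a median of 0.035. Set, Nasp, Hat1 and Npm1 were each higher in all 6 withdrawn embryos than in any supplied one, as were 2.15% of all genes. Set, an acidic histone chaperone, had a log2 fold change of 0.37 (adjusted p = 0.00498), and Nasp, which holds the soluble reserve of H3 and H4, 0.32 (adjusted p = 0.00657). Hat1, which acetylates newly made H4, had 0.28 (adjusted p = 0.00795), and Npm1, a nucleolar chaperone, 0.26 (adjusted p = 0.00920). Ssrp1, a subunit of the FACT complex, and Supt6h, a chaperone of elongating RNA polymerase, also rose, by 0.25 and 0.23.

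The counts of calls that follow are to be read against 6.22% of all genes called higher and 7.75% called lower. Of 8 other histone-fold genes 1 rose, Cenpa, the H3 variant of centromeres, with 0.27 (adjusted p = 0.0314). Pole3 and Pole4, the histone-fold subunits of DNA polymerase epsilon, had 0.23 (adjusted p = 0.0568) and -0.18 (adjusted p = 0.139), and Cenpt of the inner kinetochore 0.20 (adjusted p = 0.101). S phase genes gave 2 higher and 1 lower of 35, with a median of 0.045, and averaged 10.48 ± 0.03 over the supplied embryos and 10.51 ± 0.03 over the withdrawn (SD, n = 6 each). The gene that fell was Uhrf1, the cofactor of maintenance DNA methylation, with -0.63 (adjusted p = 0.00304). Ung, a uracil glycosylase, and E2f8, an E2F repressor, rose by 0.28 and 0.26, and Pola1, the catalytic subunit of DNA polymerase alpha, had -0.19 (adjusted p = 0.0914). Germ cell markers moved between the diets too, with 4 of 8 higher and 2 lower, Pou5f1 by 0.45 (adjusted p = 0.00505) and Dazl by -0.43 (adjusted p = 0.0212) among them. All 10 supporting cell markers had a negative log2 fold change, 5 at an unadjusted p below 0.05, and 1 fell (Kitl, -0.32). All 6 mesenchymal markers were negative too, 5 at an unadjusted p below 0.05, and 1 fell (Fbln1, -0.29). Of 3 mesonephric epithelium markers 1 rose, Epcam, with 0.22 (adjusted p = 0.0290). The other 2 were not called, among them Pax8, with 0.016 (adjusted p = 0.778). Of the endothelial markers 0 of 5 were called, and of the macrophage markers 0 of 2. The part of these shifts in the histone results was not tested.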

How the data were processed

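The submitters' processing notes name TopHat2 2.0.13, Trim Galore 0.4.0, DESeq2 1.10.1, FastQC and genome build mm9. Not given in the sources used here are their roles, the log2 transformation, the counting tool and how it treated reads that match several genes. The authors deposited 1 table of normalized log2 values, 12516 genes in 12 embryos, and all its columns were used. Depth is unknown, and if the scale shrinks low values their fold changes are understated.

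Genes with a mean of at least log2 of 10 (3.32) were kept, 12432 of them, and 84 were dropped. Withdrawn and supplied embryos, 6 each, were compared with limma 3.58.1 in R 4.3.3, two-sided, with its variances moderated along an expression trend. Adjusted p values (Benjamini-Hochberg, all kept genes) are from limma unless another test is named. Embryos are biological replicates per the labels. Should some be siblings, p values are too small. The exact permutation test used all 924 arrangements, with a smallest p of 0.00216. The fit was tested on simulated data.

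The members and gene lists were chosen with earlier results of these data known. Genes named are every member called, the 5 highest and 5 lowest fold changes and the 5 highest means of each group, every variant, Hist1h1t and up to 4 genes of each list with the smallest p. Further members and genes, among them markers, Slbp and Rn45s, were chosen after their values were seen. Transcripts came from GENCODE M21 and promoters from RefSeq, both of build GRCm38, in which 72 of 72 members matched and 65 had a promoter. Alternatives changed the filter, scaling, variance model, weights, threshold, test and covariates, tied or averaged embryos, or left out embryos (statmod 1.5.0 for the random effect).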

Additional observations from a re-analysis of the deposited data

Results flagged for a closer look

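A single embryo stood apart from the other 5 of its group in 3 of 148 comparisons within a diet, by Dixon's criterion for 6 samples, and chance flags about 1 in 20 groups. Hist3h2bb-ps had a log2 value of 4.78 in supplied replicate 3, with the nearest embryo at 4.58. Withdrawn replicate 5 was the highest of its group in H2afy, at 12.64 against 12.42 for the nearest embryo, and in H1f0, at 8.61 against 8.02. None of these genes passed the test between diets.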

How the results depend on the processing

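Of the 29 alternatives, 6 leave fold changes as they are by construction. Of the 23 that change them, 22 left all 49 Hist1 values negative, the exception being the Rn45s covariate. No alternative called a replication-dependent gene higher or a variant gene lower. Hist1h1a, Hist1h4n, Hist1h4f and H2afv each passed in 26 of 29 and H3f3a in 24, and each missed with either covariate and without title number 4. The count of replication-dependent genes called lower, 38, became 3 with the exact permutation test, 8 at an adjusted p below 0.01, 9 with embryos of a title number and diet averaged, 18 with array weights, 14 without title number 2, and 0 without number 4 or with either covariate. Its median moved to -0.45 without title number 1 and to -0.084 with the Rn45s covariate. The count of variants called higher, 2, became 1 at the stricter threshold and with averaged embryos, and 0 without number 4 or with either covariate. The counts over all genes, 964 lower and 773 higher, became 291 and 267 with the exact test, 491 and 395 with a random effect of title number and diet, 188 and 110 with averages, 255 and 189 at the stricter threshold, 404 and 325 without number 1, 40 and 9 without number 4, 1 and 0 with the somatic covariate, and 10 and 4 with the Rn45s covariate. With 1 embryo left out at a time the replication-dependent count ranged from 18 to 46, and the counts over all genes from 443 to 1281 lower and from 365 to 1034 higher. Averaging leaves 4 values a diet, and leaving out a number removes 2 or 4 embryos. For the other settings the cause was not tested.

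Deviations from the group means of embryos that share a title number across diets correlated at -0.226 to 0.237 over 10 pairs (median 0.035), with the 4 pairs of number 1 all positive. Of 12 embryos 4 correlated best with their own number, and no chance value for that count was worked out. Such deviations sum to 0 within a diet, so pairs of the same diet lean negative by construction. Within a diet, the 4 pairs with the same number had a median of 0.207 (-0.162 to 0.276), against -0.255 for 26 pairs with different numbers. The random effect of number and diet had a correlation of 0.267. Whether these embryos are siblings is not given in the labels. The fit with the title number as a replicate block called 44 replication-dependent genes lower and 3 variants higher.

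Signs changed in members near 0. Median centring gave 0.0098 for Hist2h2aa1 and 0.0043 for H2afx, quantile normalization 0.031 for Hist2h2aa1 and -0.0081 for H1fx, and array weights 0.020 for H2afx. H1fx had -0.0090 with the random effect, -0.030 with averages, -0.046 with the somatic covariate and -0.073 without number 1. Hist3h2ba had -0.040 with the somatic covariate and -0.0049 without number 4. Without number 2 H2afy2 had -0.012, Hist2h2be -0.0071, Hist2h2bb 0.010 and H2afx 0.035. Without number 3 Hist2h2be had -0.0024 and Hist4h4 0.014, and without number 4 H1f0 had -0.053 and H2afx 0.0083. With the Rn45s covariate Hist1h2bh had 0.035, Hist1h2bf 0.0051, Hist2h2ab 0.039, Hist2h2ac 0.060, Hist2h3c2 0.041, Hist2h2aa1 0.017, Hist2h3c1 0.038, Hist2h4 0.071, Hist2h3b 0.049, Hist2h2bb 0.027 and H2afx 0.11. With 1 embryo left out, values ranged from -0.020 to 0.0079 for Hist2h2aa1, from -0.049 to 0.032 for H2afx, from -0.052 to 0.052 for H1fx, from -0.022 to 0.031 for Hist3h2ba, from -0.010 to 0.021 for Hist2h2be and from -0.093 to 0.026 for Hist4h4.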
